A study of Mus musculus with 18 samples.

Results

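The early response of the wild-type (WT) mouse colon to dextran sulfate sodium (DSS) was read from 6 of the 18 libraries of the series. They were chosen by their labels: 3 WT libraries after 24 hours of 2.5% DSS in the drinking water and 3 WT libraries from mice on sterile regular water. Each library is messenger RNA of colon tissue of a male C57BL/6J mouse, 8 weeks old, with no engineered allele in WT. All mice of the series, water controls included, were germ-free, so they lacked resident microbes but kept their own epithelium, immune cells, muscle and nerves. The other 12 libraries come from LAO1KO (Lao1-/-) and DKO (Lao1-/- Il4i1-/-) mice, with 3 DSS and 3 water libraries each, and serve here for the estimate of the spread and as context. The deleted genes code for L-amino acid oxidases, which deaminate amino acids and give off hydrogen peroxide. The labels do not say outright that the replicates of a group are separate mice, so p-values measure the spread between these samples, which may be technical. Nor do they give the time of day at which tissue was taken.

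DSS is a sulfated polysaccharide that damages the lining of the colon when mice drink it, and longer courses are a standard way to produce colitis. The colon epithelium takes up sodium, chloride and water, secretes mucus from goblet cells and seals the wall with tight junctions. Its cells also run a circadian clock, in which ARNTL and CLOCK or NPAS2 drive the genes of their own repressors (PER, CRY, CIART, NR1D1 and NR1D2) and of the output factors DBP, TEF and HLF. NR1D1 and NR1D2 in turn repress Arntl, Npas2, Nfil3 and Cry1.

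The WT libraries held 27219102 to 33176322 counts, and a count of 0 allows a level of up to 0.0904 to 0.11 CPM (counts scaled to a common library size, with TMM factors). Values below are given in the order of replicates A, B and C, and errors of log2 fold changes are standard errors. Defining colon genes were high in all 6 libraries, with Car1 at 9616, 7993 and 11315 CPM under DSS, against 7182, 5035 and 6921 CPM under water and Epcam at 1727, 1568 and 1904 CPM under DSS, against 1704, 1909 and 1799 CPM under water. Lao1 had 0, 4 and 0 counts under DSS and 0, 0 and 2 under water in WT. In LAO1KO it had 9, 10 and 2 under DSS and 5, 5 and 0 under water, and in DKO 6, 2 and 10 under DSS and 9, 0 and 5 under water. Counts of the deleted gene were thus no lower in the knockouts than in WT and do not bear out their labels, so LAO1KO and DKO below name the libraries labelled as such. Il4i1 had 8, 2 and 0 counts under DSS and 52, 4 and 0 under water in WT, and 0 in all 6 DKO libraries. The overlapping model Il4i1b had 34, 23 and 50 under DSS and 5, 23 and 51 under water in WT and 0 in 5 of the 6 DKO libraries (12 in DKO DSS replicate B), and the split between both models is uncertain. WT water replicate B and WT DSS replicate C lay farthest out on the main axis of variation, which took 44% of the variance. Replicate B of the water group had 491 CPM of Aqp4 and 19.2 CPM of Hoxa13, and WT DSS replicate C had the largest mitochondrial share. Results are therefore also given from 6 fits that each left out 1 WT library, and from a 4-library fit without both of these (DSS A and B against water A and C), which was added after the data were seen.

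Of 18848 genes tested, 2428 (12.9%) passed an adjusted p of 0.05 in edgeR's quasi-likelihood test, with 1186 (6.29%) higher and 1242 (6.59%) lower under DSS. Increases were larger than decreases: 496 genes rose and 230 fell by more than 2-fold, and 702 of all changes were under 1.5-fold. In all 6 leave-one-out fits 593 genes (3.15%) passed, 294 higher (1.56%) and 299 lower (1.59%). These fits, named below by the WT library left out (water B for WT water replicate B), called as few as 777 genes without water B and 981 without DSS C. Without water A they called 1283, and 1602 without DSS A. The 4-library fit called 231, and 192 of the 593 were among them. The groups did not overlap in CPM for 6375 genes (33.8%).

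Clock genes were among those that changed most in WT, in opposite directions by role. Of 6 activators and their partners 3 fell and 0 rose, of 10 repressors 5 rose and 1 fell, and all 3 output factors rose. Medians of the log2 fold change were -0.73, 0.63 and 1.79 for these lists, beside 0.02 over all tested genes. Arntl (chromosome 7, 113178471 to 113314126 in GRCm38.p6), the obligate partner of CLOCK, had 8.91, 10.03 and 8.64 CPM under DSS, against 36.01, 51.9 and 36.4 CPM under water. Every water library was thus more than 3 times above every DSS library (log2 fold change -2.17 ± 0.19, adjusted p = 2.42e-05). Npas2, which can stand in for CLOCK, had 15.7, 14.7 and 9.76 CPM under DSS, against 36.1, 36.7 and 32.3 CPM under water (log2 fold change -1.38 ± 0.17, adjusted p = 4.29e-04). Nfil3, a repressor of the genes that DBP activates, had 2.96, 3.02 and 2.64 CPM under DSS, against 8.104, 7.33 and 10.3 CPM under water (log2 fold change -1.57 ± 0.18, adjusted p = 3.03e-04). Clock itself had 54.9, 57.8 and 61.4 CPM under DSS, against 56.8, 62.1 and 64.6 CPM under water, with overlapping groups and an adjusted p of 0.704. Rora (-0.03), a nuclear receptor that activates Arntl, did not pass either.

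Among the repressors, Ciart (chromosome 3, 95878500 to 95882257), which blocks the ARNTL-CLOCK pair, had 16.6, 14.6 and 19.8 CPM under DSS, against 1.92, 0.861 and 1.92 CPM under water. Every DSS library was thus several times above every water library (log2 fold change 3.43 ± 0.47, adjusted p = 9.99e-04). Nr1d2, a heme-binding nuclear repressor of Arntl, had 142, 154 and 178 CPM under DSS, against 46.9, 28.9 and 63.9 CPM under water (log2 fold change 1.76 ± 0.25, adjusted p = 0.00123). Its close relative Nr1d1 had 90.8, 107 and 105 CPM under DSS, against 64.7, 50.6 and 51.01 CPM under water (log2 fold change 0.87 ± 0.19, adjusted p = 0.00856), a smaller change with groups that did not overlap either. Per3, a period protein, had 73.7, 58.6 and 69.9 CPM under DSS, against 21.9, 6.41 and 20.1 CPM under water (log2 fold change 2.06 ± 0.45, adjusted p = 0.0105). WT water replicate B was the lowest library for Ciart, Nr1d2 and Per3. Bhlhe41 was near 1 CPM or below in all 3 water libraries, with 2.07, 4.46 and 4.35 CPM under DSS, against 0.418, 0.637 and 0.985 CPM under water (log2 fold change 2.402 ± 0.55, adjusted p = 0.0112), and did not pass without water A or water B (adjusted p 0.0519 to 0.0521). Cry1 was the single repressor that fell, with 10.1, 10.8 and 11.3 CPM under DSS, against 25.2, 50.5 and 19.3 CPM under water (log2 fold change -1.56 ± 0.32, adjusted p = 0.00693). Per1, Per2, Cry2 and Bhlhe40 did not pass, with log2 fold changes of 0.14, 0.11, 0.39 and -0.03.

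The output factors are PAR bZIP transcription factors that carry clock timing to metabolic genes. Dbp (chromosome 7, 45705100 to 45710203) had the largest increase of any named nuclear gene, with 107, 113 and 131 CPM under DSS, against 9.86, 6.02 and 13.6 CPM under water (log2 fold change 3.57 ± 0.39, adjusted p = 3.65e-04). Tef had 128, 123 and 143 CPM under DSS, against 46.2, 20.05 and 47.6 CPM under water (log2 fold change 1.79 ± 0.31, adjusted p = 0.003499), and Hlf had 7.29, 9.22 and 12.05 CPM under DSS, against 2.51, 4.91 and 4.28 CPM under water (log2 fold change 1.28 ± 0.27, adjusted p = 0.00763). All 3 held in all 6 leave-one-out fits, as did 4 of the repressors that rose, Cry1 and the 3 activators and partners that fell. In the 4-library fit 3 activators and partners fell, 2 repressors and 2 output factors rose, and Per3 (1.62, adjusted p = 0.0843) and Cry1 (-1.12, adjusted p = 0.0785) did not pass.

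**Figure D1:**
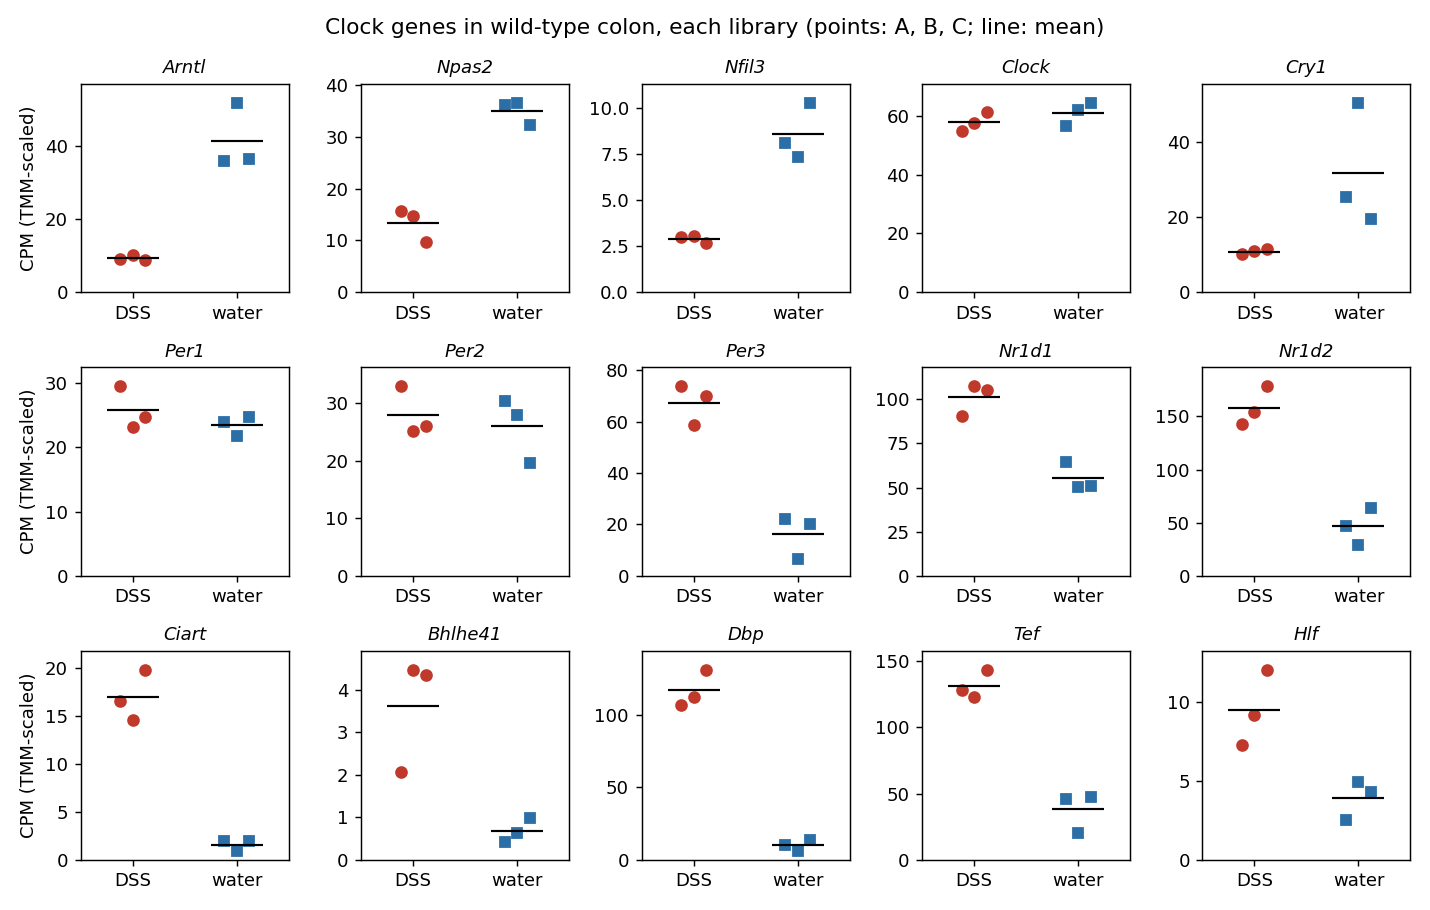
Level of 15 clock genes in each WT library, in TMM-scaled CPM on linear axes from 0. Circles are the 3 DSS libraries, squares the 3 water libraries and bars the group means. DSS libraries of Dbp sit between 107 and 131 CPM and water libraries between 6.02 and 13.6 CPM, whereas those of Arntl are 8.64 to 10.03 CPM and 36.01 to 51.9 CPM, and those of Clock overlap.

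Point estimates of the knockouts were smaller than those of WT for Dbp, Ciart, Nr1d2 and Arntl. Dbp changed by 1.61 ± 0.36 in LAO1KO and 0.93 ± 0.36 in DKO. Ciart changed by 1.22 ± 0.43 in LAO1KO and 0.40 ± 0.42 in DKO, Nr1d2 by 0.33 ± 0.24 in LAO1KO and 0.27 ± 0.24 in DKO and Arntl by -1.22 ± 0.18 in LAO1KO and -0.45 ± 0.18 in DKO. Arntl averaged 13.6 ± 1.66 CPM under DSS and 31.7 ± 8.18 under water in LAO1KO, and 19.7 ± 2.87 under DSS and 26.9 ± 1.24 under water in DKO (SD, n = 3 each). Means under water in WT, LAO1KO and DKO were 9.83, 26.3 and 26.98 CPM for Dbp and 1.57, 4.67 and 5.92 for Ciart. For Nr1d2 they were 46.6, 84.9 and 87.9. Under DSS they were 117, 80.4 and 51.5 for Dbp and 17.0, 10.9 and 7.85 for Ciart. Those of Nr1d2 under DSS were 158, 107 and 106. The smaller knockout estimates of these genes thus went with higher water levels as well as lower DSS levels. Hlf differed little between genotypes in its point estimates, at 1.28 ± 0.27 in WT, 1.34 ± 0.27 in LAO1KO and 1.18 ± 0.27 in DKO. Of the clock genes Arntl alone had an interaction past the threshold (DKO minus WT, 1.72, edgeR adjusted p = 0.0328). For the others a difference between genotypes was therefore not shown.

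Promoter windows are given for 3 clock genes, 1 with the E-box that ARNTL binds, 1 with the D-box that DBP, TEF and HLF bind and NFIL3 competes for, and 1 with the ROR element that NR1D1 and NR1D2 bind. Each window runs from 250 bases before to 50 after the annotated start, from RefSeq (GRCm38.p6), 5′ to 3′ on the gene's strand, and 16 of the 19 clock genes had an entry. Capitals mark CACGTG in Ciart (minus strand, chr3:95882179-95882478), TTATGTAA in Per3 (minus strand, chr4:151044616-151044915) and AGGTCA in the second Arntl start (plus strand, chr7:113207261-113207560), searched on both strands.
Ciart: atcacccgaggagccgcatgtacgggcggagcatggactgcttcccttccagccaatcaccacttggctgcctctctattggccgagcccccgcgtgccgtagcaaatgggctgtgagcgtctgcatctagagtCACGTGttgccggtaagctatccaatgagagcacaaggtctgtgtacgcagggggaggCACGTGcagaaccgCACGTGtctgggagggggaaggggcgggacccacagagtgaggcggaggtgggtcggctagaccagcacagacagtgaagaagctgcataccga
Per3: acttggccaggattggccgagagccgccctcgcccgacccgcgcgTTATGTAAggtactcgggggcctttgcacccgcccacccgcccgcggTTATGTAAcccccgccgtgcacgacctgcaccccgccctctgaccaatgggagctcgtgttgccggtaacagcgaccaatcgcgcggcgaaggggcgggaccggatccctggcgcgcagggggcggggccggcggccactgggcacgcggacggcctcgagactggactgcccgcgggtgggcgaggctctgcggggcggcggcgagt
Arntl: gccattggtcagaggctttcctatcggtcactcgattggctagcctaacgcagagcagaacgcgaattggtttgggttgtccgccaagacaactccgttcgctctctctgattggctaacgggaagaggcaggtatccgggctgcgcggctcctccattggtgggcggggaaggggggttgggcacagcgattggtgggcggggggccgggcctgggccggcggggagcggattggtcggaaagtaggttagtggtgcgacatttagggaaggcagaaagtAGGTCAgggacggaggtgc
Ciart held 3 matches to CACGTG, a count reached by 29 of 32851 windows (0.088%), while 7.15% held at least 1. Per3 held 2 matches to TTATGTAA, as did 7 windows (0.021%), against 0.94% with any. AGGTCA occurs in 16.26% of windows. These 3 windows were picked as holding their motif, and the other clock genes with an entry were mixed. CACGTG was also in Bhlhe41 and Tef, in Cry1, which fell, and in Per1, which did not pass. It was absent from Nr1d1, Nr1d2, Per3 and Hlf. TTATGTAA was in Per3 alone. AGGTCA was also in Nr1d2, Nfil3, Per1 and a Clock start, but not in Npas2, Cry1 or the first Arntl start. The Dbp window held no CACGTG, which speaks only of these letters in this window.

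Metallothioneins, small cysteine-rich proteins that bind zinc and copper, rose together, and no zinc transporter rose. Mt2 (chromosome 8, 94172618 to 94173567) had 768, 407 and 986 CPM under DSS, against 103, 88.6 and 130.3 CPM under water (log2 fold change 2.75 ± 0.28, adjusted p = 1.04e-04). Mt1, its neighbour on the same chromosome, had 1020.3, 609 and 1559 CPM under DSS, against 243, 193 and 222 CPM under water (log2 fold change 2.28 ± 0.29, adjusted p = 6.38e-04). Both groups were far apart for either gene, and WT DSS replicate B was the lowest of the DSS libraries in each. The genes are near copies whose reads the counting may have shared, so their split is uncertain. In the 4-library fit they still passed, at 2.297 (adjusted p = 0.00576) and 1.77 (adjusted p = 0.0183). Of 8 zinc transporters tested, Slc39a8, an importer of zinc and manganese, was lower at 19.8, 17.2 and 16.6 CPM under DSS, against 32.6, 19.8 and 37.7 CPM under water (log2 fold change -0.75 ± 0.22, adjusted p = 0.0316), but it did not pass without DSS B, DSS C, water A or water C (adjusted p 0.0667 to 0.123), and with the replicate letter as a block its adjusted p was 0.0608. The zinc exporter Slc30a1, itself a target of the zinc sensor MTF1, had 49.3, 42.8 and 59.2 CPM under DSS, against 54.7, 63.97 and 71.9 CPM under water and did not pass (-0.33 ± 0.17, adjusted p = 0.193). In the knockouts Mt2 changed by 0.85 ± 0.26 in LAO1KO and 0.44 ± 0.26 in DKO and Mt1 by 0.74 ± 0.28 in LAO1KO and 0.34 ± 0.28 in DKO.

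The windows of both metallothionein genes are shown because MTF1 binds a short metal response element, here searched as TGCACNC and TGCGCNC on both strands. Capitals mark the matches in Mt2 (plus strand, chr8:94172368-94172667) and Mt1 (plus strand, chr8:94178839-94179138).
Mt2: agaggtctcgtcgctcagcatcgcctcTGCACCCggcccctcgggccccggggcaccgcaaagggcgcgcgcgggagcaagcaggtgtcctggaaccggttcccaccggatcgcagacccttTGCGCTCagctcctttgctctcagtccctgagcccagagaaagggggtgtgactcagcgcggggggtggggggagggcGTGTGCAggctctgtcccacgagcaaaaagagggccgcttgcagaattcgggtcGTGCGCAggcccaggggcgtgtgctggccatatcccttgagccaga
Mt1: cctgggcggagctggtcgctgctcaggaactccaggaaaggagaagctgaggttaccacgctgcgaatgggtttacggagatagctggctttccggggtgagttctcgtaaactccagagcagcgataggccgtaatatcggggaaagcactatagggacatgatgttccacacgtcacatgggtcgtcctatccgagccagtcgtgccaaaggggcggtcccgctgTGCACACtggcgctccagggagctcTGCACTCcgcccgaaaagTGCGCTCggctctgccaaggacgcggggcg
Mt2 held 4 matches and Mt1 held 3. In the same search the windows of the clock genes Dbp and Per3 also held 4 and 3. Of all 32851 windows, 25.7% held at least 1 and 1.97% held 3 or more.

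Transcripts of the mitochondrial genome rose together. They encode 13 subunits of the respiratory chain, and nuclear genes encode the rest. All 13 mRNAs passed and held in all 6 leave-one-out fits, with log2 fold changes between 2.04 (ND3) and 3.22 (ND4L) and a median of 2.64. COX1, the catalytic subunit of cytochrome oxidase, had 132701, 113183 and 312436 CPM under DSS, against 28301, 27957 and 33561 CPM under water (log2 fold change 2.64 ± 0.42, adjusted p = 0.00192). CYTB of complex III had 36325, 32179.8 and 79004 CPM under DSS, against 7096, 6343 and 8045 CPM under water (log2 fold change 2.78 ± 0.38, adjusted p = 8.02e-04), and ND6, encoded on the other strand, had 505, 565 and 1808 CPM under DSS, against 135, 126 and 179 CPM under water (log2 fold change 2.71 ± 0.44, adjusted p = 0.00265). WT DSS replicate C was the highest library for each of these. Of the 4-library fit's calls, 10 were among the 13. All 34 mitochondrial genes tested were higher, including 19 tRNAs (1.77 to 2.84) and 2 ribosomal RNAs, and 27 of them held in all 6 fits. The libraries were made from polyadenylated RNA, so tRNA counts are a small and indirect sample of those RNAs.

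Together the 13 mRNAs took 26.94, 26.11 and 44.94% of counts under DSS, against 7.652, 6.889 and 9.084% under water. Means were 32.66 ± 10.6% under DSS and 7.875 ± 1.11% under water (SD, n = 3 each), a difference of 24.79 points with no overlap. The 2-sided exact permutation test gave p = 0.1, the smallest that 20 arrangements allow. Without WT DSS replicate C the difference was 18.65 points. These are shares of raw totals, whereas CPM are also divided by the TMM factors. Those were 0.8739, 0.9333 and 0.6253 under DSS and 1.12, 1.064 and 1.133 under water. In CPM the 13 mRNAs summed to 279840 to 718950 under DSS, against 64757 to 80191 under water. Differences in CPM and log2 fold change are therefore wider than those in share and rest on that scaling. In LAO1KO the shares were 18.71, 23.21 and 15.75% under DSS, against 8.666, 14.38 and 13.45% under water. In DKO they were 14.26, 23.63 and 20.62% under DSS, against 15.86, 10.52 and 20.7% under water, with overlapping groups. The median log2 fold change of the 13 mRNAs was 0.77 in LAO1KO and 0.37 in DKO.

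Most nuclear partners of these subunits did not pass. Of 20 nuclear-encoded respiratory chain genes, 2 rose and 1 fell (15%, beside 12.9% of all genes), with a median of 0.01. Sdha, the flavoprotein of complex II, fell, with 256, 263 and 268 CPM under DSS, against 427, 507 and 422 CPM under water (log2 fold change -0.78 ± 0.16, adjusted p = 0.0073997). Ndufa1 (log2 fold change 0.70 ± 0.19, adjusted p = 0.0251) and Ndufa2 (log2 fold change 0.75 ± 0.21, adjusted p = 0.0306), small subunits of complex I, rose. Ndufa1 did not pass without DSS C, water A or water C (adjusted p 0.05702 to 0.101), and Ndufa2 did not pass without DSS A, DSS C, water A, water B or water C (adjusted p 0.0561 to 0.121). Neither passed with the length trend described next removed (adjusted p = 0.637 and 0.162). In that fit 1 other member of the list rose and 3 members fell. Of 20 cytosolic ribosomal protein genes 0 passed, with a median of 0.20, but with the length trend removed the median was -0.03 and 3 fell. These were Rplp0, Rps2 and Rpl10 (adjusted p = 0.00394, 0.008504 and 0.0252). In bulk tissue, a change in the number of cells of a type and a change in RNA per cell cannot be told apart.

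**Figure D2:**
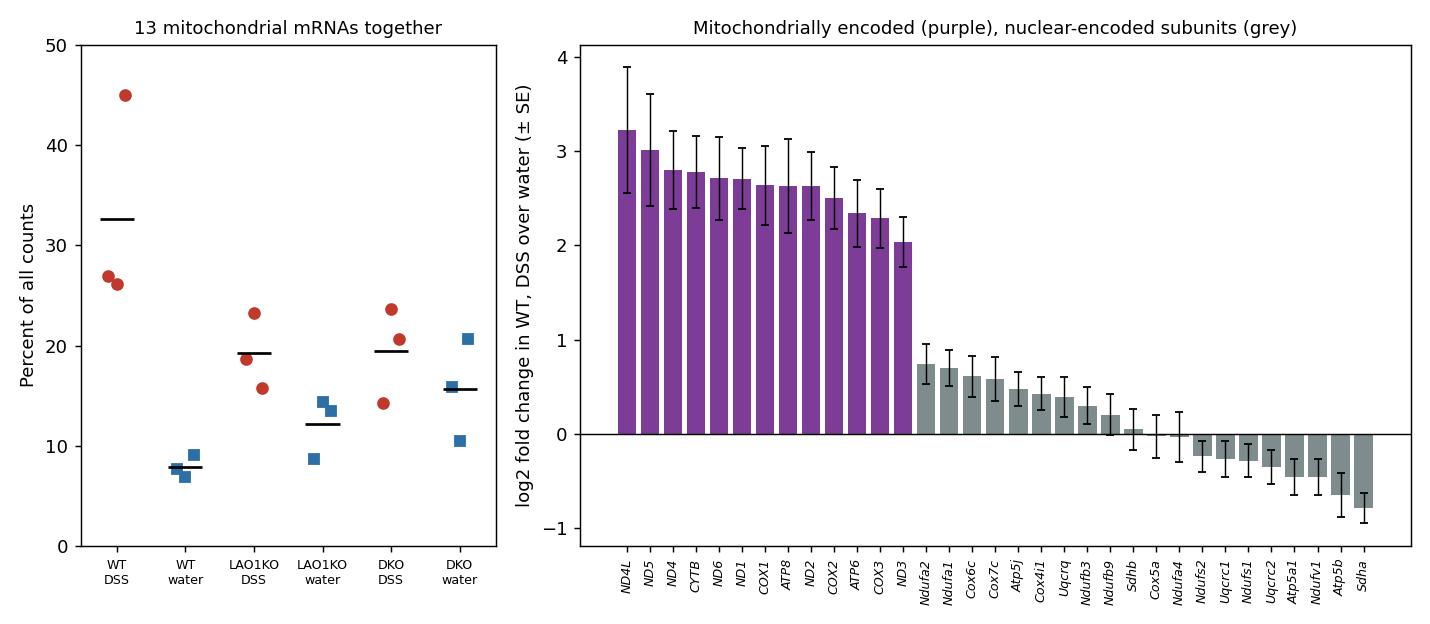
Left, percent of all counts in the 13 mitochondrial mRNAs in each library of the 3 genotypes (circles DSS, squares water, bars means). Right, log2 fold change of DSS over water in WT with its SE for these 13 mRNAs (purple) and 20 nuclear-encoded subunits (grey). The mitochondrial bars lie between 2.04 and 3.22, whereas the nuclear ones spread around 0.

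Change under DSS also went with transcript length in WT. In the shortest of 5 equal classes of genes (median length 1186 bases) the median log2 fold change was 0.271, with 13.9% of genes higher and 1.55% lower. In the longest class (median 6694 bases) it was -0.151, with 2.6% higher and 13.2% lower. The corresponding medians were -0.03 and 0.04 in LAO1KO and 0.08 and -0.0007 in DKO. Each library's deviation from the mean of the 6 correlated with length across 14827 genes at a Spearman rho of -0.327, -0.045 and -0.255 for the DSS libraries and 0.227, 0.148 and 0.293 for the water libraries. This is a description across genes, which are not replicates. With each library's length trend removed, 2278 genes passed, and 572 of the 593 stable genes were among them.

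**Figure D3:**
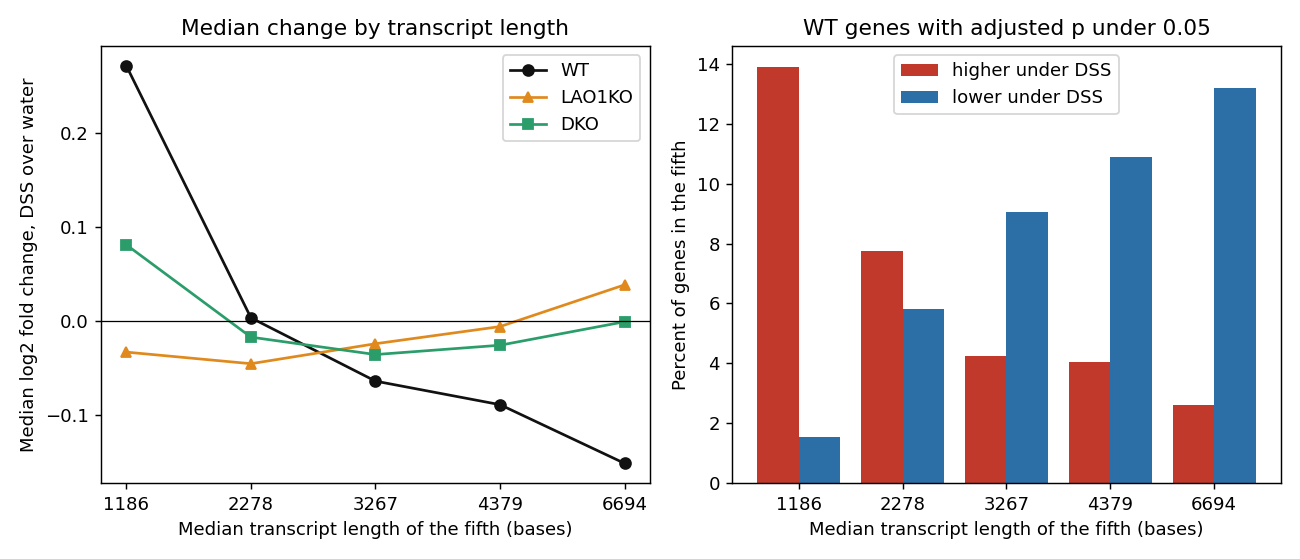
Left, median log2 fold change of DSS over water in 5 equal classes of genes by transcript length for WT, LAO1KO and DKO. Right, percent of genes in each class that were higher or lower under DSS in WT at adjusted p under 0.05. The WT line runs from 0.271 in the shortest class to -0.151 in the longest.

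Part of the genes of pyroptosis and of antigen presentation by MHC class I rose, and none fell. Gasdermins form pores in membranes once they are cleaved, and inflammatory caspases cleave gasdermin D and process IL-18. Of 17 gasdermin and inflammasome genes 7 rose and 0 fell, 3 of them in all 6 leave-one-out fits, with a median of 0.56. Gsdmc2, a gasdermin of the gut epithelium, had 351, 502 and 255 CPM under DSS, against 178, 110.003 and 129 CPM under water (log2 fold change 1.41 ± 0.28, adjusted p = 0.00576). Its near copy Gsdmc3 had 172, 258 and 105 CPM under DSS, against 88.4, 55.2 and 62.6 CPM under water (log2 fold change 1.38 ± 0.31, adjusted p = 0.0116) and did not pass without water B (adjusted p = 0.0607), and reads may be split between the 2 genes. The log2 fold change of Gsdmc2 was 1.12 in LAO1KO and 0.86 in DKO. Casp1 had 280.4, 229.5 and 246 CPM under DSS, against 141, 103 and 158 CPM under water (log2 fold change 0.91 ± 0.18, adjusted p = 0.00576), and Casp4, which senses lipopolysaccharide inside the cell, had 39.2, 40.2 and 50.1 CPM under DSS, against 23.003, 18.2 and 25.4 CPM under water (log2 fold change 0.96 ± 0.18, adjusted p = 0.00454). Gsdmd, the substrate of both, had 126, 103 and 133 CPM under DSS, against 87.6, 49.2 and 86.4 CPM under water (log2 fold change 0.70 ± 0.18, adjusted p = 0.0208), and it did not pass without DSS A, DSS C or water B (adjusted p 0.0729 to 0.0976). Neither Il18 (12.3, 10.1 and 9.82 CPM under DSS, against 4.51, 10.6 and 5.295 CPM under water; adjusted p = 0.203) nor Il1b (0.499, 0.332 and 0.235 CPM under DSS, against 0.334, 0.319 and 0.958 CPM under water; adjusted p = 0.537) passed. In the 4-library fit 2 members of the list passed.

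Of 17 genes of class I presentation 9 rose and 0 fell (median 0.57). B2m, the light chain of class I molecules, had 922, 941 and 996 CPM under DSS, against 485, 439 and 604 CPM under water (log2 fold change 0.90 ± 0.16, adjusted p = 0.00305), with a narrow spread in both groups. Psmb9, a catalytic subunit of the immunoproteasome, had 32.8, 23.6 and 36.4 CPM under DSS, against 13.5, 10.6 and 16.3 CPM under water (log2 fold change 1.199 ± 0.26, adjusted p = 0.00912). Ubd, an interferon- and TNF-inducible ubiquitin-like protein, had 11.6, 7.38 and 15.1 CPM under DSS, against 2.51, 0.797 and 3.57 CPM under water (log2 fold change 2.29 ± 0.50, adjusted p = 0.00946). These 3 held in all 6 leave-one-out fits. Psmb8, the companion of Psmb9, had 55.8, 37.4 and 42.3 CPM under DSS, against 16.2, 8.702 and 23.7 CPM under water (log2 fold change 1.48 ± 0.34, adjusted p = 0.0133) and did not pass without water B (adjusted p = 0.0524). The other 5 were Psmb10, Psme1, Psme2, Tap2 and H2-T23, with log2 fold changes of 0.49 to 0.86, each lost in 2 to 5 of the 6 fits. In the 4-library fit 0 of the 17 passed, although the median was 0.55. Changes of B2m were 0.01 ± 0.16 in LAO1KO and -0.46 ± 0.16 in DKO, and those of Ubd were 0.03 ± 0.47 in LAO1KO and -0.56 ± 0.47 in DKO. Of 8 class II genes 1 passed (12.5%, beside 12.9% of all genes). This was H2-DMa, which rose (log2 fold change 0.74 ± 0.21, adjusted p = 0.0304). It did not pass without DSS A, DSS B or water B (adjusted p 0.0854 to 0.136).

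Most messengers of acute inflammation were low or did not pass. Of 14 chemokines and cytokines tested 0 rose and 1 fell (7.14%, beside 12.9% of all genes). Their median was nevertheless 1.01, and 0.61 in the 4-library fit. Cxcl10, which attracts T cells, had 2.92, 3.39 and 2.94 CPM under DSS, against 0.668, 1.15 and 2.26 CPM under water (adjusted p = 0.0991), Tnf had 2.69, 1.84 and 1.65 CPM under DSS, against 1.504, 0.414 and 0.905 CPM under water (adjusted p = 0.125), and Ccl2, which attracts monocytes, had 0.2303, 1.18 and 0.705 CPM under DSS, against 0.362, 0.223 and 0.1597 CPM under water (adjusted p = 0.322). These low counts leave wide errors. Ccl28, a mucosal chemokine for plasma cells, had 39.8, 39.8 and 33.97 CPM under DSS, against 47.5, 49.9 and 59.8 CPM under water (log2 fold change -0.47 ± 0.14, adjusted p = 0.03202). It did not pass without DSS C, water B or water C (adjusted p 0.0696 to 0.135), and its adjusted p was 0.0661 with the replicate block and 0.0501 with the length trend removed. Among 12 NF-kappa-B feedback genes Nfkb1 (43.6, 46.5 and 46.4 CPM under DSS, against 72.8, 67.1 and 61.2 CPM under water; log2 fold change -0.56 ± 0.11, adjusted p = 0.00545) and Tnfaip3, an inhibitor of the pathway (18.4, 18.7 and 22.4 CPM under DSS, against 27.96, 41.1 and 35.2 CPM under water; log2 fold change -0.81 ± 0.17, adjusted p = 0.00837), fell in all 6 fits. Of 20 type I interferon-stimulated genes 0 passed, with a median of 0.03, but without the outlying libraries, WT water replicate B among them, the median was 0.93 and 2 rose. These were Stat2 (0.90, adjusted p = 0.0237) and Xaf1 (1.47, adjusted p = 0.0238). Ifit3 passed with the replicate block (adjusted p = 0.0269) and Ddx58 with the length trend removed (adjusted p = 0.0282). Of 14 immediate early genes 0 passed in these fits. WT water replicate B was high in some interferon-stimulated genes, with Isg15 at 12.9, 25.9 and 22.1 CPM under DSS, against 3.45, 56.4 and 5.003 CPM under water, and in the early gene Fos at 73.4, 85.4 and 58.2 CPM under DSS, against 48.4, 274 and 82.2 CPM under water.

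Of 15 acute-phase and antimicrobial genes 2 rose (13.3%, beside 6.29% of all genes) and 0 fell, while 1 fell with the replicate block. The summed level of the list was higher without overlap, at 6385 to 8499 CPM under DSS, against 5009 to 5876 CPM under water. Saa3, an acute-phase apolipoprotein, had 9.75, 7.75 and 82.3 CPM under DSS, against 2.26, 0.892 and 5.77 CPM under water (log2 fold change 3.46 ± 0.84, adjusted p = 0.0182), and most of its rise was in WT DSS replicate C. It did not pass without DSS C, water A or water B (adjusted p 0.0693 to 0.0984). Pglyrp1, which binds bacterial cell walls, had 148, 111 and 142 CPM under DSS, against 94.4, 75.003 and 91.1 CPM under water (log2 fold change 0.62 ± 0.17, adjusted p = 0.0232). It did not pass without DSS A, DSS C or water B (adjusted p 0.0867 to 0.105), and also not with the length trend removed (adjusted p = 0.107). Reg3b, an antibacterial lectin, was at 107, 87.4 and 49.1 CPM under DSS, against 289, 0.51 and 76.3 CPM under water, so 1 water library was close to 0 and the groups overlapped. Markers of leukocytes did not pass either. Summed neutrophil markers were 1.11 to 3.17 CPM under DSS, against 2.26 to 4.62 CPM under water, with 6 of 12 listed at 0 in all 6 libraries. Macrophage and dendritic cell markers summed to 109 to 138 CPM under DSS, against 103 to 145 CPM under water, and T and NK cell markers to 14.2 to 19.8 CPM under DSS, against 6.79 to 17.2 CPM under water, with 0 of 14 and 0 of 12 called. B and plasma cell markers summed to 42.7 to 106 CPM under DSS, against 8.54 to 74.8 CPM under water, with 0 of 12 called and a median of 1.423.

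**Figure D4:**
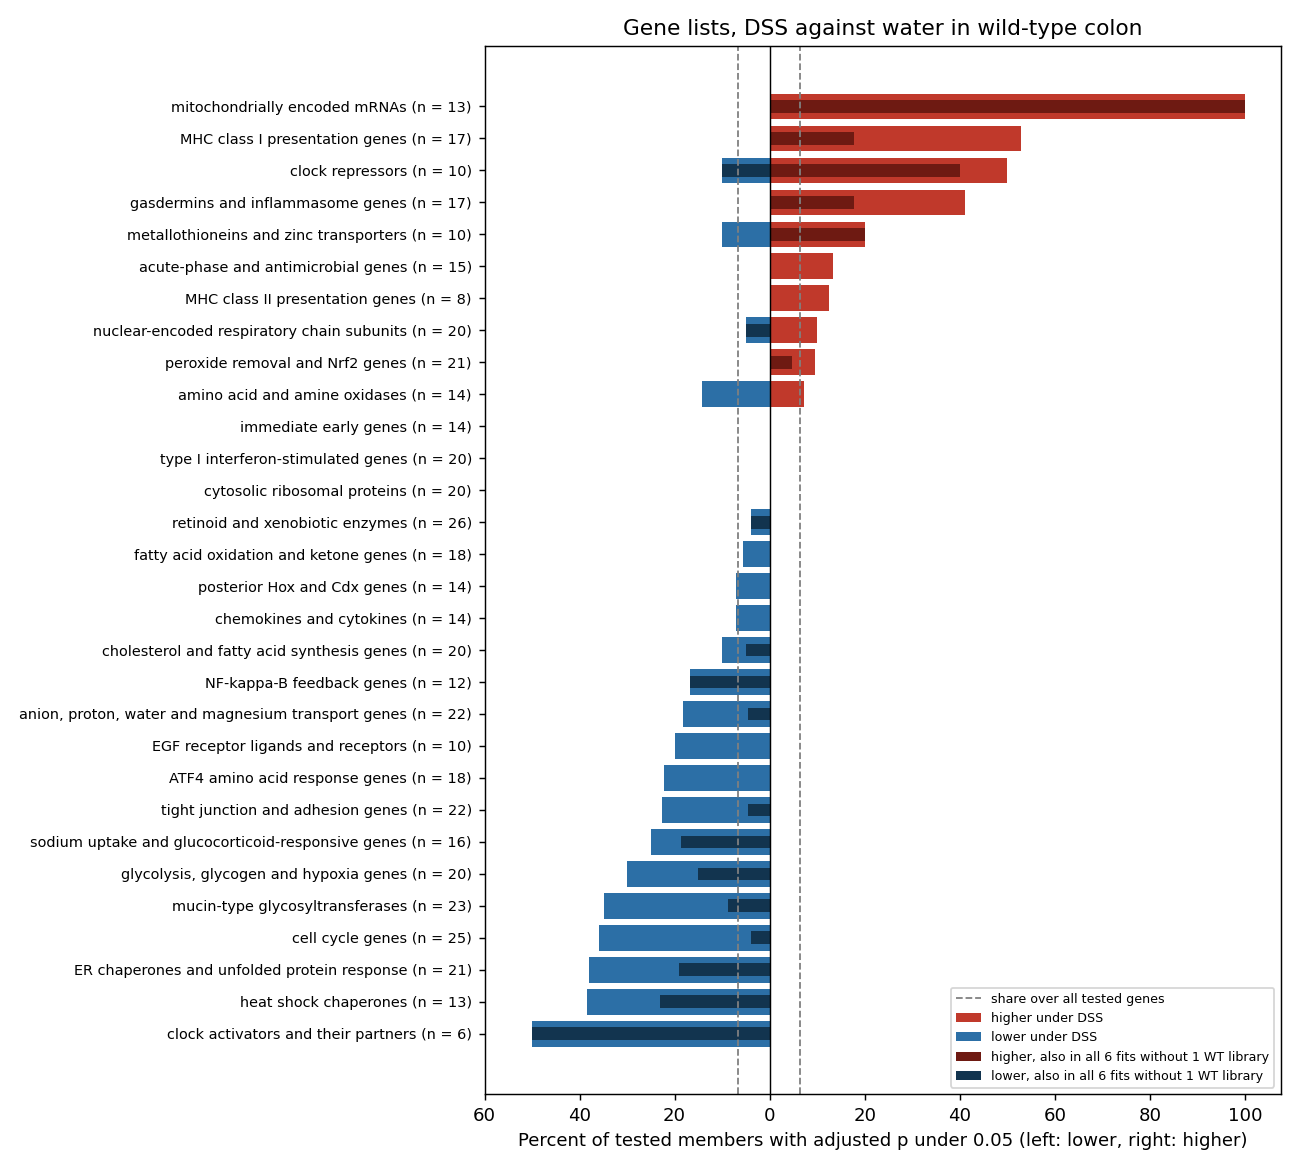
Percent of the tested members of gene lists by function that were higher (right) or lower (left) under DSS in WT at adjusted p under 0.05, with n in brackets. The clock output factors (n = 3) and the lists of cell type markers are not drawn. Narrow dark bars are members that also passed in all 6 fits without 1 WT library, and dashed lines are the shares over all tested genes (6.29% higher, 6.59% lower). Mitochondrial mRNAs reach 100%, and the lists for junctions, transport and mucin glycans extend to the left.

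Genes for junctions and for the transport of ions and water that passed were lower. Of 22 genes for tight junctions and adhesion, 5 fell and 0 rose (median -0.32). Cldn8 (chromosome 16, 88560826 to 88563183), a claudin that limits the leak of sodium between cells, had 10.7, 12.02 and 7.46 CPM under DSS, against 43.03, 49.9 and 47.6 CPM under water. Its DSS libraries lay together far below a tight group of water libraries (log2 fold change -2.21 ± 0.21, adjusted p = 4.35e-05), and it passed in all 6 leave-one-out fits and the 4-library fit (adjusted p = 0.002696). In the knockouts it changed by -0.63 ± 0.20 in LAO1KO and -0.47 ± 0.20 in DKO. Ocln, an integral protein of the junction, had 77.5, 81.1 and 86.99 CPM under DSS, against 130.2, 144 and 117 CPM under water (log2 fold change -0.67 ± 0.18, adjusted p = 0.0202) and did not pass without water A or water B (adjusted p 0.0545 to 0.0838). Dsc2, a desmosomal cadherin, had 146, 153 and 115 CPM under DSS, against 252, 311 and 222 CPM under water (log2 fold change -0.92 ± 0.23, adjusted p = 0.0164) and did not pass without DSS C or water B (adjusted p 0.0697 to 0.0759). Cldn15 (log2 fold change -0.51 ± 0.15, adjusted p = 0.033003) did not pass without DSS B, DSS C, water A or water B (adjusted p 0.05699 to 0.133). Cldn2 (log2 fold change -1.41 ± 0.42, adjusted p = 0.0413) did not pass without DSS B, DSS C, water A or water C (adjusted p 0.0856 to 0.154), and its adjusted p was 0.0912 with the replicate block.

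Some of the genes that respond to glucocorticoid or aldosterone fell. Of 16 such genes and sodium uptake genes 4 fell and 0 rose (median -0.34), and 3 passed in the 4-library fit. Sgk1, a kinase that keeps sodium channels at the surface, had 65.5, 51.9 and 94.9 CPM under DSS, against 146, 201 and 214 CPM under water (log2 fold change -1.402 ± 0.24, adjusted p = 0.00312). Fkbp5, a co-chaperone of the glucocorticoid receptor, had 126, 115 and 149 CPM under DSS, against 233, 232 and 218 CPM under water (log2 fold change -0.81 ± 0.15, adjusted p = 0.003499). Zbtb16, a transcription factor, had 3.301, 4.72 and 1.53 CPM under DSS, against 19.05, 20.05 and 13.1 CPM under water (log2 fold change -2.42 ± 0.40, adjusted p = 0.00265). All of these held in all 6 leave-one-out fits, and their groups did not overlap. Tsc22d3, another gene induced by glucocorticoids, had 27.9, 26.3 and 35.1 CPM under DSS, against 41.2, 66.9 and 43.9 CPM under water (adjusted p = 0.0812). By genotype Sgk1 had log2 fold changes of -1.402 in WT, -1.34 in LAO1KO and -1.36 in DKO. Zbtb16 had -1.46 ± 0.39 in LAO1KO and 0.37 ± 0.37 in DKO, without an interaction past the threshold.

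Of 22 genes for the transport of anions, protons, water and magnesium 4 fell and 0 rose (median -0.43). Their summed level went the other way without overlap, at 9878 to 14003 CPM under DSS, against 9268 to 9740 CPM under water. That sum includes the abundant Car1, whose levels are given above. Slc26a2, a sulfate transporter that feeds the sulfation of mucins, had 34.4, 40.5 and 46.3 CPM under DSS, against 81.9, 155 and 70.1 CPM under water (log2 fold change -1.34 ± 0.29, adjusted p = 0.00887) and held in all 6 fits. Trpm6, the magnesium channel of the surface epithelium, had 39.96, 29.9 and 40.7 CPM under DSS, against 74.3, 55.5 and 61.2 CPM under water (log2 fold change -0.79 ± 0.19, adjusted p = 0.01502). It did not pass without water A (adjusted p = 0.0691), and its adjusted p with the length trend removed was 0.0554. Car2 (log2 fold change -0.66 ± 0.21, adjusted p = 0.0456) did not pass without DSS A, DSS C, water A or water B (adjusted p 0.0663 to 0.222), and Aqp1 (log2 fold change -0.80 ± 0.25, adjusted p = 0.0425) did not pass without DSS A, DSS B, DSS C, water A or water C (adjusted p 0.0704 to 0.179). The chloride-bicarbonate exchanger Slc26a3 had 107, 96.5 and 331 CPM under DSS, against 103, 734 and 112 CPM under water and did not pass, WT water replicate B being far above the rest. Among 18 absorptive colonocyte genes Slc51b, a bile acid exporter subunit (log2 fold change 1.01 ± 0.25, adjusted p = 0.0177), and Guca2b, the precursor of uroguanylin (log2 fold change 0.99 ± 0.25, adjusted p = 0.0193), rose. They made up 11.1% of that list, beside 12.9% of all genes that passed. Slc51b did not pass without DSS A, DSS C, water A or water B (adjusted p 0.0527 to 0.0944), Guca2b did not pass without DSS C or water B (adjusted p 0.0801 to 0.112), and neither passed with the length trend removed (adjusted p = 0.102 and 0.192).

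Goblet cell genes that passed were lower, with Tff3 as an exception. Of 16 goblet cell genes 5 fell and 1 rose, or 8 and 1 with the replicate block, but 0 of either held in all 6 leave-one-out fits. Muc2, the main gel-forming mucin of the colon, had 3519, 3393 and 1809.7 CPM under DSS, against 6371, 5042 and 4858 CPM under water (log2 fold change -0.90 ± 0.23, adjusted p = 0.0197) and did not pass without DSS C or water A (adjusted p 0.0729 to 0.0825). Agr2, a disulfide isomerase needed for MUC2, had 731, 554 and 314 CPM under DSS, against 1000.2, 1275 and 761 CPM under water (log2 fold change -0.93 ± 0.29, adjusted p = 0.0442) and did not pass without DSS B, DSS C, water A or water B (adjusted p 0.0667 to 0.182). Bhlha15 (log2 fold change -2.62 ± 0.57, adjusted p = 0.00857), a transcription factor of secretory cells, did not pass without water B (adjusted p = 0.05096). Spdef (log2 fold change -0.74 ± 0.22, adjusted p = 0.0347) did not pass without DSS B, DSS C, water A or water B (adjusted p 0.0628 to 0.138), and Creb3l1 (log2 fold change -0.68 ± 0.19, adjusted p = 0.0275) did not pass without DSS B, DSS C, water A or water B (adjusted p 0.05199 to 0.123). Tff3, a secreted trefoil peptide, had 1051, 716 and 877 CPM under DSS, against 485, 345 and 419.5 CPM under water (log2 fold change 1.08 ± 0.25, adjusted p = 0.0115). It did not pass without water B (adjusted p = 0.0593), and its adjusted p with the length trend removed was 0.0911. The summed goblet list overlapped, at 9704 to 14015 CPM under DSS, against 10767 to 13319 CPM under water, and the median was -0.48.

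Some enzymes that build mucin glycans fell. Of 23 glycosyltransferases 8 fell and 0 rose (median -0.50), and their summed level did not overlap, at 2189.9 to 2525 CPM under DSS, against 3004 to 3606 CPM under water. Fut4, a fucosyltransferase, had 13.1, 11.8 and 11.2 CPM under DSS, against 28.4, 25.9 and 28.6 CPM under water (log2 fold change -1.200 ± 0.16, adjusted p = 6.38e-04). B3galt5, which makes type 1 chains, had 28.7, 31.8 and 12.3 CPM under DSS, against 65.2, 236 and 61.7 CPM under water (log2 fold change -2.31 ± 0.48, adjusted p = 0.00918), and its highest value was in WT water replicate B. In the 4-library fit it was -1.102 with an adjusted p of 0.0412. B3gnt7 (1.497, 1.11 and 0.529 CPM under DSS, against 4.46, 23.2 and 4.74 CPM under water; log2 fold change -3.33 ± 0.73, adjusted p = 0.00996) did not pass without water B (adjusted p = 0.0522). The core 3 synthase B3gnt6 had 13.1, 8.41 and 4.17 CPM under DSS, against 25.3, 15.1 and 27.1 CPM under water (log2 fold change -1.38 ± 0.35, adjusted p = 0.0182) and did not pass without DSS C or water A (adjusted p 0.0588 to 0.0703).

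Chaperones of the endoplasmic reticulum (ER) and the cytosol were lower where they passed. Of 21 ER chaperone and unfolded protein response genes 8 fell and 0 rose (median -0.42), 4 of them in all 6 fits, and sums were 2382 to 2701 CPM under DSS, against 3063 to 3346 CPM under water. Hyou1, an ER relative of HSP70, had 44.95, 39.2 and 27.6 CPM under DSS, against 83.04, 89.6 and 70.6 CPM under water (log2 fold change -1.12 ± 0.16, adjusted p = 0.00128). Pdia6, a disulfide isomerase, had 114, 100.7 and 89.98 CPM under DSS, against 165, 178 and 159 CPM under water (log2 fold change -0.72 ± 0.15, adjusted p = 0.00842). Ern1, which encodes the stress sensor IRE1-alpha, had 3.26, 5.16 and 1.704 CPM under DSS, against 13.5, 17.98 and 10.6 CPM under water (log2 fold change -2.03 ± 0.44, adjusted p = 0.00942), and Dnajc3, a co-chaperone and inhibitor of PERK, had 67.9, 62.4 and 67.5 CPM under DSS, against 93.5, 87.7 and 111 CPM under water (log2 fold change -0.56 ± 0.13, adjusted p = 0.0119). Hspa5, the most abundant ER chaperone of the HSP70 family, had 222, 199 and 184 CPM under DSS, against 311, 357 and 290.5 CPM under water (log2 fold change -0.66 ± 0.20, adjusted p = 0.0389) and did not pass without DSS B, DSS C, water A or water B (adjusted p 0.0604 to 0.137). Hyou1 changed by -0.12 ± 0.16 in LAO1KO and 0.05 ± 0.16 in DKO.

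Of 13 heat shock chaperones 5 fell and 0 rose (median -0.47), with sums of 2207 to 2490 CPM under DSS, against 2857 to 3844 CPM under water. Hsph1, a nucleotide exchange factor for HSP70, had 26.4, 31.9 and 23.9 CPM under DSS, against 69.6, 80.3 and 60.99 CPM under water (log2 fold change -1.36 ± 0.21, adjusted p = 0.00192). Hsp90ab1 had 583, 501 and 573 CPM under DSS, against 1043, 898 and 729.6 CPM under water (log2 fold change -0.69 ± 0.14, adjusted p = 0.00576), and Hspa1b, an inducible HSP70, had 15.2, 15.7 and 18.7 CPM under DSS, against 36.01, 40.6 and 23.2 CPM under water (log2 fold change -1.01 ± 0.21, adjusted p = 0.00795). The near copy Hspa1a also fell (log2 fold change -0.997 ± 0.29, adjusted p = 0.0325) but did not pass without DSS A, DSS B, DSS C, water A or water B (adjusted p 0.0643 to 0.154), and reads may be split between the 2 genes. Hspd1, the mitochondrial HSP60, had 188, 155 and 157 CPM under DSS, against 280.4, 339 and 263 CPM under water (log2 fold change -0.82 ± 0.19, adjusted p = 0.0121) and did not pass without water B (adjusted p = 0.0571). Of 18 genes of the ATF4 amino acid response 4 fell and 0 rose, 0 in all 6 fits. Slc7a5, a transporter of large neutral amino acids, had 1.69, 3.17 and 4.29 CPM under DSS, against 7.66, 15.01 and 6.79 CPM under water (log2 fold change -1.698 ± 0.36, adjusted p = 0.0083004) and did not pass without water B (adjusted p = 0.05002).

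Both oxidases deleted in DKO release hydrogen peroxide. Of 21 genes that remove peroxide or answer to NRF2, 2 rose and 0 fell (median 0.12), so their share was near the 6.29% over all genes. Gpx4, which reduces lipid peroxides, had 264, 216 and 356 CPM under DSS, against 157, 147 and 169.96 CPM under water (log2 fold change 0.82 ± 0.18, adjusted p = 0.00866) and held in all 6 fits. Gclm, a subunit of the enzyme that begins glutathione synthesis, had 75.8, 62.96 and 86.9 CPM under DSS, against 52.2, 44.1 and 55.8 CPM under water (log2 fold change 0.57 ± 0.13, adjusted p = 0.00968) and did not pass without DSS C or water B (adjusted p 0.0576 to 0.0586). Of 14 oxidase genes tested 1 rose and 2 fell (21.4%, beside 12.9% of all genes). Noxo1, the organizer of NADPH oxidase 1, rose (140.04, 118 and 96.6 CPM under DSS, against 79.5, 71.5 and 82.1 CPM under water; log2 fold change 0.61 ± 0.14, adjusted p = 0.0114). Its partner Nox1, the catalytic subunit, fell (4.41, 4.94 and 1.82 CPM under DSS, against 7.02, 10.2 and 8.01 CPM under water; log2 fold change -1.16 ± 0.32, adjusted p = 0.0276). Smox, which oxidises spermine and releases hydrogen peroxide, also fell (16.2, 22.6 and 13.9 CPM under DSS, against 38.2, 61.4 and 24.6 CPM under water; log2 fold change -1.23 ± 0.34, adjusted p = 0.0279). Noxo1 did not pass without DSS A or water B (adjusted p 0.0591 to 0.0703), Nox1 did not pass without DSS C or water B (adjusted p 0.104 to 0.112) and Smox did not pass without DSS A, DSS C, water A or water B (adjusted p 0.0548 to 0.143).

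Proliferation and stem cell genes that passed were lower. Of 25 cell cycle genes 9 fell and 0 rose (median -0.57), but 1 held in all 6 fits and 4 passed with the length trend removed. Mcm5, a subunit of the replicative helicase, was that gene, with 19.5, 12.98 and 8.11 CPM under DSS, against 36.6, 35.9 and 20.8 CPM under water (log2 fold change -1.196 ± 0.27, adjusted p = 0.00957). Aurka, a mitotic kinase, had 12.4, 7.78 and 6.64 CPM under DSS, against 15.6, 25.9 and 13.3 CPM under water (log2 fold change -1.02 ± 0.27, adjusted p = 0.0228) and did not pass without DSS B, DSS C or water B (adjusted p 0.0555 to 0.139). Of 15 crypt stem cell and Wnt target genes 2 fell and 0 rose (13.3%, beside 6.59% of all genes lower), with a median of -0.12. The other 13 did not pass, 1 of the 2 held in all 6 fits, and the summed level overlapped. Ephb2, a Wnt target that positions cells in the crypt, held in all 6. It had 28.2, 25.9 and 15.2 CPM under DSS, against 47.8, 44.7 and 38.96 CPM under water (log2 fold change -0.92 ± 0.19, adjusted p = 0.00748). Axin2, a feedback target of Wnt, was also lower (log2 fold change -0.90 ± 0.25, adjusted p = 0.0282), although it did not pass without DSS B, DSS C, water A or water B (adjusted p 0.05004 to 0.122). Of 10 EGF receptor ligands and receptors Tgfa (log2 fold change -0.75 ± 0.16, adjusted p = 0.00842) and Egfr (log2 fold change -0.46 ± 0.15, adjusted p = 0.0434) fell. Tgfa did not pass without water B (adjusted p = 0.05096), while Egfr did not pass without DSS A, DSS C, water A or water B (adjusted p 0.0801 to 0.223) and also lost its call with the length trend removed (adjusted p = 0.214).

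Some enzymes of glycogen metabolism fell. Of 20 glycolysis, glycogen and hypoxia genes 6 fell and 0 rose (median -0.47). The 3 that held in all 6 fits handle glycogen: Pygb, a glycogen phosphorylase, with 75.5, 100.6 and 80.9 CPM under DSS, against 148, 178 and 128 CPM under water (log2 fold change -0.82 ± 0.14, adjusted p = 0.00259), Gys1, a glycogen synthase, with 17.7, 20.03 and 17.04 CPM under DSS, against 29.02, 34.3 and 22.5 CPM under water (log2 fold change -0.64 ± 0.14, adjusted p = 0.0083004), and the branching enzyme Gbe1. Gbe1 had 18.3, 18.8 and 13.5 CPM under DSS, against 31.02, 29.1 and 38.5 CPM under water (log2 fold change -0.96 ± 0.20, adjusted p = 0.00837) and changed by -1.04 ± 0.20 in LAO1KO and -1.08 ± 0.20 in DKO. Of 20 cholesterol and fatty acid synthesis genes 2 fell (10%, beside 6.59% of all genes). Srebf2, a transcription factor of sterol synthesis, was 1 of these (log2 fold change -0.48 ± 0.15, adjusted p = 0.0439), and it did not pass without DSS B, DSS C, water A or water B (adjusted p 0.0684 to 0.181). Of 18 fatty acid oxidation genes Hadha fell (log2 fold change -0.54 ± 0.17, adjusted p = 0.0446), a share of 5.56% that is near the background, and it did not pass without DSS B, DSS C, water A or water B (adjusted p 0.0514 to 0.152).

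Other cell types were followed with markers of each. Of 21 fibroblast and matrix genes 8 fell and 0 rose, with a summed level of 847 to 1640.5 CPM under DSS, against 1595 to 2434 CPM under water. Ccn3, a secreted matricellular protein, had 27.7, 17.2 and 10.9 CPM under DSS, against 99.6, 120.3 and 76.2 CPM under water (log2 fold change -2.400 ± 0.36, adjusted p = 0.00192), and Adamts4, a protease of proteoglycans, had 0.883, 1.25 and 0.882 CPM under DSS, against 5.54, 7.24 and 3.699 CPM under water (log2 fold change -2.43 ± 0.42, adjusted p = 0.00296). Both held in all 6 fits. Collagen genes did not: Col3a1 had 110.4, 234 and 116 CPM under DSS, against 357, 527 and 256 CPM under water (log2 fold change -1.31 ± 0.36, adjusted p = 0.0276) and did not pass without DSS A, DSS C, water A or water B (adjusted p 0.0574 to 0.131). Smooth muscle markers summed to 3717 to 7444 CPM under DSS, against 6312 to 9784 CPM under water with 0 of 12 called, and endothelial markers to 55.2 to 97.7 CPM under DSS, against 83.7 to 104 CPM under water with 0 of 11. Adipocyte markers summed to 157 to 599.5 CPM under DSS, against 179.6 to 1035 CPM under water. None of the tested tuft cell, mast cell, red cell, squamous, pancreatic acinar or skeletal muscle markers passed, with red cell markers at 103 to 411 CPM under DSS, against 43.9 to 111 CPM under water. Markers of small-intestine enterocytes summed to 1244 to 2352 CPM under DSS, against 1208 to 1708 CPM under water. Of these 1 of 12 tested rose (8.33%, beside 12.9% of all genes that passed). This was Apoc3, an apolipoprotein, with 1.38, 2.32 and 7.17 CPM under DSS, against 1.48, 0.574 and 0.878 CPM under water (log2 fold change 1.86 ± 0.49, adjusted p = 0.0208). It did not pass without DSS C or water B (adjusted p 0.0959 to 0.189).

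Of 16 enteric neuron and glia markers 3 rose and 0 fell, or 10 and 0 with the replicate block, and their sums did not overlap, at 294 to 402 CPM under DSS, against 183 to 239 CPM under water. S100b, a marker of enteric glia, had 5.57, 5.83 and 10.3 CPM under DSS, against 2.65, 2.996 and 4.42 CPM under water (log2 fold change 1.102 ± 0.32, adjusted p = 0.0333) and did not pass without DSS C, water A or water B (adjusted p 0.1199 to 0.196). Prph, an intermediate filament of enteric neurons, had 37.8, 39.8 and 50.3 CPM under DSS, against 23.1, 16.7 and 25.1 CPM under water (log2 fold change 0.98 ± 0.29, adjusted p = 0.0349) and did not pass without DSS A, DSS B, DSS C, water A or water B (adjusted p 0.0688 to 0.1502). With the length trend removed S100b and Prph did not pass (adjusted p = 0.0904 and 0.0786). Of 13 enteroendocrine markers 3 rose, with sums of 492 to 527 CPM under DSS, against 348 to 424 CPM under water. Chga, a granule protein, had 98.7, 97.6 and 93.1 CPM under DSS, against 68.8, 49.6 and 57.4 CPM under water (log2 fold change 0.72 ± 0.17, adjusted p = 0.0122) and did not pass without water B (adjusted p = 0.0686). Their part in the changes of the epithelial and stromal lists was not tested.

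The largest changes outside these groups covered varied functions. Among increases, Ugt1a5, from a locus of overlapping glucuronosyltransferase isoforms, had 3.42, 2.14 and 9.29 CPM under DSS, against 0.863, 0.255 and 0.479 CPM under water (log2 fold change 3.18 ± 0.61, adjusted p = 0.00466), an uncertain count. Gp1bb, a subunit of the platelet receptor for von Willebrand factor, had 45.7, 20.9 and 78.3 CPM under DSS, against 8.27, 1.78 and 6.79 CPM under water (log2 fold change 3.09 ± 0.64, adjusted p = 0.00927). Of the other platelet markers, Pf4 had 2.03, 3.098 and 2.94 CPM under DSS, against 2.12, 2.36 and 2.16 CPM under water, and 2 of the 9 listed were at 0 in all 6 libraries. Itgb3 fell (log2 fold change -0.90 ± 0.24, adjusted p = 0.0202) but did not pass without DSS A, DSS C or water B (adjusted p 0.0634 to 0.0949). Gstp3, a glutathione transferase, had 5.797, 3.28 and 4.17 CPM under DSS, against 1.23, 1.43 and 1.44 CPM under water (log2 fold change 1.69 ± 0.32, adjusted p = 0.004599). Ager, the receptor for advanced glycation end products, had 3.34, 2.47 and 3.64 CPM under DSS, against 1.31, 1.12 and 0.878 CPM under water (log2 fold change 1.51 ± 0.32, adjusted p = 0.00761), and the snoRNA host gene Snhg20 had 31.8, 28.3 and 37.6 CPM under DSS, against 10.3, 11.8 and 14.2 CPM under water (log2 fold change 1.423 ± 0.21, adjusted p = 0.00141). Ttc6 and Nrp completed the 15 largest nuclear increases, with log2 fold changes of 1.47 ± 0.31 and 1.797 ± 0.38. All of these were well below 100 CPM.

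Among decreases, Dhrs9, a retinol dehydrogenase, had 1.07, 2.47 and 0.588 CPM under DSS, against 10.5, 36.9 and 4.52 CPM under water (log2 fold change -3.604 ± 0.78, adjusted p = 0.0102), with a large spread among the water libraries. In the 4-library fit it was -2.102 with an adjusted p of 0.126. Itpkb, a kinase that phosphorylates inositol trisphosphate, had 3.65, 8.04 and 3.29 CPM under DSS, against 21.6, 26.1 and 20.9 CPM under water (log2 fold change -2.18 ± 0.28, adjusted p = 6.38e-04), while it changed by 0.44 ± 0.26 in LAO1KO and 0.28 ± 0.26 in DKO. Npy4r, the receptor for pancreatic polypeptide, had 0.9597, 1.88 and 0.646 CPM under DSS, against 4.82, 8.702 and 3.65 CPM under water (log2 fold change -2.27 ± 0.38, adjusted p = 0.00265). Il6ra, the ligand-binding chain of the IL-6 receptor, had 0.269, 1.07 and 0.764 CPM under DSS, against 3.34, 2.58 and 3.51 CPM under water (log2 fold change -2.16 ± 0.45, adjusted p = 0.00716). Ago2, the slicer of the microRNA pathway, had 6.95, 9.33 and 3.94 CPM under DSS, against 23.3, 44.6 and 17.9 CPM under water (log2 fold change -2.07 ± 0.36, adjusted p = 0.00349), and the serine hydrolase Abhd2 had 13.8, 14.8 and 14.1 CPM under DSS, against 52.5, 96.9 and 41.9 CPM under water (log2 fold change -2.16 ± 0.39, adjusted p = 0.00421). Trim56, a ubiquitin ligase of antiviral signalling (log2 fold change -2.28 ± 0.50, adjusted p = 0.00919), and Megf9 (log2 fold change -2.32 ± 0.43, adjusted p = 0.00394) were the remaining ones.

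**Figure D5:**
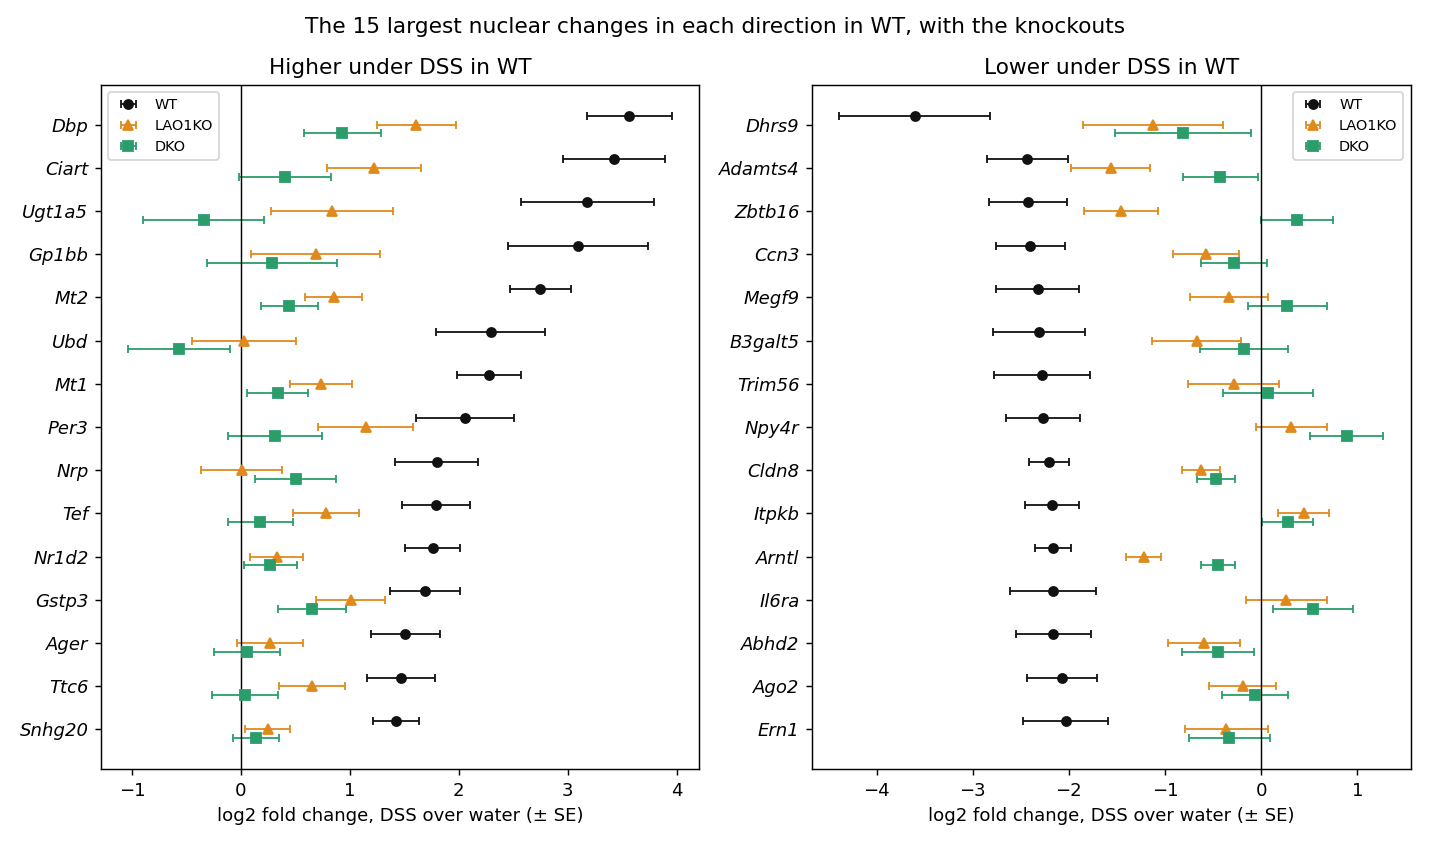
Log2 fold change of DSS over water with its SE for the 15 largest nuclear increases (left) and decreases (right) in WT, with LAO1KO and DKO values beside them. The WT points were chosen for their size, so their lying farther from 0 than the knockout points is in part set by the choice.

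More genes passed in WT than in either knockout. DSS against water passed for 37 genes in LAO1KO (0.196%), 17 of them also called in WT with the same sign, and for 3 genes in DKO (0.0159%), 0 of them shared. Of the 294 genes that were stably higher in WT, 83% had a positive change in LAO1KO and 75.5% in DKO, and 52.3% of all tested genes were positive in each. Of the 299 stably lower genes 85.6% were negative in LAO1KO and 83.9% in DKO. Genes called higher in WT had a median log2 fold change of 0.149 in LAO1KO, 0.105 in DKO and, where they were selected, 0.879 in WT. For genes called lower in WT the medians were -0.208 in LAO1KO, -0.153 in DKO and -0.652 in WT. The test of the difference itself passed for 0 genes between LAO1KO and WT (0%) and for 11 between DKO and WT (0.0584%), against 3005 and 2903 at an unadjusted p under 0.05. DESeq2 called 441 and 492 of these differences, limma voom 2324 and 235, and edgeR with the replicate block 1 and 152. The DKO count was 0 without DSS C, water A or water B, and 148 without water C.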

How the data were processed

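Per the labels' protocols, colon RNA went into stranded mRNA libraries and paired-end sequencing. The authors deposited raw read counts per gene symbol for 18 libraries (45777 genes). The submitters' processing notes list StringTie 2.1.3b, HISAT2 2.1.0, Trimmomatic 0.38 and FastQC 0.11.7, beside R 4.3.2 and DESeq2 1.42.1, and the builds mm10 and GRCm38. How shared reads, overlaps and strand were counted is not given in the sources used here, so near copies and overlapping genes are uncertain.

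Here the counts were filtered with filterByExpr (18848 genes left, 15816 of all genes never counted), scaled with TMM and fitted with edgeR 4.0.16 (R 4.3.3, quasi-likelihood, robust, 1 mean per group, all 18 libraries). Adjusted p-values are Benjamini-Hochberg over all tested genes, threshold 0.05. Standard errors are the absolute log2 fold change over the square root of F. The script was tested on simulated counts. Alternatives were RLE factors, mitochondrial mRNAs left out, no filter, only the compared genotypes, DESeq2 1.42.0, limma 3.58.1 voom, a replicate block, leave-one-out, and, added after the data were seen, removal of each library's length trend and the 4-library fit. The block treats DSS and water libraries of the same letter as pairs, which was not established. In WT, deviations from the group mean correlated across genes at 0.193, 0.165 and 0.217 for the same letter, against -0.155 to -0.0512 for different letters. The same letter gave 0.0361, 0.0249 and -0.299 in LAO1KO, where different letters reached 0.375. In DKO it gave 0.263, 0.184 and 0.0661. Totals set the floor at 3 counts, for counting error only.

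Gene names, coordinates and promoters came from RefSeq GRCm38.p6 (18340 genes matched) and lengths from the longest GENCODE vM21 transcript (17228 matched). The members and lists were chosen with earlier results of these data known. The genes named were up to 15 per direction with the largest change, at least 1 CPM, no overlap and a pass in all leave-one-out fits, up to 4 called members per list, and the interaction genes. Mitochondrial tRNAs and an rRNA took 9 of the 15 places for increases, so the 15 nuclear genes per direction were added after values were seen, as were other list members named. A few list members are not reported here.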

Additional observations from a re-analysis of the deposited data

Results flagged for a closer look

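For 11 genes the response to DSS differed between DKO and WT in the interaction test (edgeR adjusted p 0.0328 to 0.0452). Differences are DKO minus WT on the log2 scale. The clock activator Arntl had 1.72, with 23.01, 18.2 and 17.9 CPM under DSS, against 25.96, 26.4 and 28.3 CPM under water in DKO. Cldn8 had 1.74, with 27.6, 20.3 and 22.3 CPM under DSS, against 27.6, 36.3 and 33.3 CPM under water in DKO. Mt2 had -2.305, with 402, 459 and 440.4 CPM under DSS, against 401, 244 and 313 CPM under water in DKO, so its DKO water libraries lay above the WT water libraries, at 103, 88.6 and 130.3 CPM. B2m had -1.36, with 547, 704 and 763 CPM under DSS, against 1039, 908 and 815 CPM under water in DKO, again with DKO water libraries above those of WT, at 485, 439 and 604 CPM. Itpkb had 2.454, with 19.1, 26.4 and 22.4 CPM under DSS, against 13.7, 20.98 and 21.4 CPM under water in DKO. Npy4r had 3.158, with 1.66, 2.18 and 1.72 CPM under DSS, against 0.822, 1.103 and 1.06 CPM under water in DKO.

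Hr, a nuclear corepressor, had 1.222, with 31.4, 26.4 and 23.8 CPM under DSS, against 30.8, 27.2 and 31.2 CPM under water in DKO and 17.5, 16.97 and 16.7 CPM under DSS, against 46.1, 51.6 and 33.02 CPM under water in WT. Fer1l6, a ferlin, had 1.219, with 75.8, 73.5 and 63.04 CPM under DSS, against 33.8, 28.4 and 27.4 CPM under water in DKO and 52.1, 45.9 and 42.96 CPM under DSS, against 42.2, 47.5 and 48.9 CPM under water in WT. The near copies Trim12a and Trim12c had -1.218 and -1.095, and reads may be split between them. The gene model LOC115488509 had -1.954. With WT DSS replicate C, WT water replicate A or B, any DKO DSS library, or DKO water replicate A or C left out, 0 genes passed this test.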

How the results depend on the processing

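The count of 2428 WT genes was 1083 when only the WT libraries were fitted and 231 in the 4-library fit, and it ranged from 777 to 2702 when 1 WT library was left out. It stayed within 1.5 times with RLE factors (2577), mitochondrial mRNAs left out (2539), no filter (1986), DESeq2 (3468), voom (3377), the replicate block (2613), the length trend removed (2278) and both of the last together (2535). The percent of calls that were higher was 48.8, but 39.8 in the 4-library fit and 39.2 without WT DSS replicate A. Between LAO1KO and WT, 0 genes differed in their response, against 2 with no filter, 441 in DESeq2, 2324 in voom, 1 each with the replicate block, the length trend removed or both, and 0 to 47 when 1 library was left out. Between DKO and WT the count of 11 was 6 with only these genotypes, 492 in DESeq2, 235 in voom, 152 with the replicate block, 178 with the block and the length trend removed, 0 in the 4-library fit and 0 to 148 when 1 library was left out. The cause of these shifts was not tested, apart from fewer libraries entering the smaller fits. The difference in mitochondrial share ranged from 18.65 to 28.06 points when 1 library was left out. Decreases outnumbered increases except in voom (1749 higher, 1628 lower). Among the lists described, medians changed sign for nuclear respiratory chain genes (0.01 to -0.18) and ribosomal proteins (0.20 to -0.03) with the length trend removed. In the 4-library fit they did so for acute-phase genes (0.16 to -0.17), immediate early genes (-0.15 to 0.28) and skeletal muscle markers (-0.23 to 0.02). None of the 139 named genes that passed reversed. Of these, 48 kept their call in the 4-library fit and 91 lost it, and 49 lost it with only the WT libraries, 17 with the length trend removed and 5 with the replicate block. Besides the calls given beside the results, the block ended those of Mthfd2 (adjusted p = 0.12) and Fev (0.0534) and added Myh11 (-0.67, 0.0323) and Mmp9 (-1.74, 0.0346); it changed no other call of a gene given here. Genes under 1 CPM are limited by depth.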

Other observations

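WT water replicate B stood apart in transport and homeobox genes, and homeobox genes are known to mark position along the gut. The chloride-bicarbonate exchanger Slc26a3 was at 107, 96.5 and 331 CPM under DSS, against 103, 734 and 112 CPM under water. The water channel Aqp4 was at 30.1, 28.8 and 21.04 CPM under DSS, against 37.9, 491 and 19.2 CPM under water, and the sodium-proton exchanger Slc9a3 at 72.02, 59.01 and 69.3 CPM under DSS, against 65.2, 297 and 77.4 CPM under water. The homeobox gene Hoxa13 had 0.192, 0.479 and 0 CPM under DSS, against 1.09, 19.2 and 0.585 CPM under water, and Hoxb8 had 45.99, 43.96 and 39.7 CPM under DSS, against 50.99, 10.3 and 45.5 CPM under water. The organic solute transporter subunit Slc51a had 361, 219 and 509 CPM under DSS, against 258, 18.7 and 318 CPM under water, and the disaccharidase Sis had 65.3, 43.6 and 82.3 CPM under DSS, against 45.9, 0.159 and 62.9 CPM under water. Thus this water library was high in Slc26a3, Aqp4, Slc9a3 and Hoxa13 and low in Hoxb8, Slc51a and Sis, and the other 2 water libraries were near the DSS libraries in most of these. The labels do not say which stretch of the colon each sample holds. These genes were chosen after their values were seen, and their part in the counts of WT calls was not tested beyond leaving that library out.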
